A study of Caenorhabditis elegans with 7 samples.

Results

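The ceh genes of Caenorhabditis elegans (named for C. elegans homeobox) encode transcription factors that bind DNA through a homeodomain. The genes described here are the 49 whose symbol in the authors' comparison sheet was ceh followed by a number, with ceh-22 left out, among 13436 genes of that sheet. That sheet holds genes above 1 CPM in 3 libraries, per the deposited notes, and 15 other ceh symbols in the count files fell outside it. Counts in single libraries were taken by sequence name, and all 49 genes were also among the 14867 genes tested below.

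The larvae were starved first-stage (L1) progeny of the wild-type strain N2, and the groups differed by parental diet. AL parents had fed ad libitum and DR parents under dietary restriction, on the bacterium HB101 in liquid culture at 25 and 3.1 per mL, for 96 hr. Both amounts are in mg in the deposited notes, whereas the labels write that for DR parents in ml. Embryos of both groups were freed by bleaching and held without food for 24 hr, so neither group had fed. There were 3 AL libraries (A, B and C) and 4 DR libraries (A, B, C and D), stated to be biological replicates, each from whole larvae. In such bulk samples fewer cells of a type and less RNA per cell cannot be told apart.

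A homeodomain is a helix-turn-helix fold that reads short DNA sequences, and homeobox genes are sorted into classes by the relatedness of this domain. In worms, combinations of homeodomain proteins mark nearly every neuron class, and others pattern the body axis, the epidermis, muscle and the pharynx, the feeding organ. In L1 arrest, larvae hatched without food pause postembryonic development, and the embryonically made cells keep their identities. By textbook class, the 49 genes held 13 of the NK-like (NKL) class, 8 of the paired-like (PRD) class, 6 of the CUT class, 3 of the sine oculis class, 3 of the PBC class, 2 of the POU class, 1 Hox gene and 1 LIM gene, and 12 were left without a class.

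The libraries held between 16626117 and 22952310 counts in annotated features, and each ceh gene had between 145 and 14082 counts over the 7 libraries. Ribosomal RNA took 22.5% of the counts in DR D and 7.54% to 12.2% in the other libraries. Moulting genes summed to 231 CPM in AL B and 227 CPM in DR B, against 119 to 166 CPM in the other 5 libraries. Not every gene of that list was high there. The gene mlt-10 had 5.66 CPM in AL B and 8.66 CPM in DR B, against 5.66 (AL C) to 12.3 CPM (DR D) elsewhere. Markers of early embryos were near 0, with a sum over 9 genes of 1.39 to 3.30 CPM in AL and 1.35 to 1.85 CPM in DR libraries. Pan-neuronal markers summed over 17 genes to 3688 to 4011 CPM in AL and 3828 to 4127 CPM in DR libraries. CPM here are counts relative to each library's total in features, scaled by TMM factors.

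Levels per length came first. Over the 7 libraries the 49 genes ranged from 0.590 to 41.2 CPM per kb of exon, a ratio of 69.8. Their median was 6.41 CPM per kb, against 8.40 CPM per kb for all tested genes and 8.38 CPM per kb for the 38 other homeobox genes listed. The levels of 20 ceh genes lay above the median of all tested genes and those of 29 below it. These comparisons rest on unlike filters: the 49 come from the 13436 genes of the authors' sheet. The background per kb comes from the 14638 of the 14867 tested genes that have an exon length. The same 10 ceh genes were the highest in AL and in DR progeny, and no gene moved by more than 6 places in that order.

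**Figure D1:**
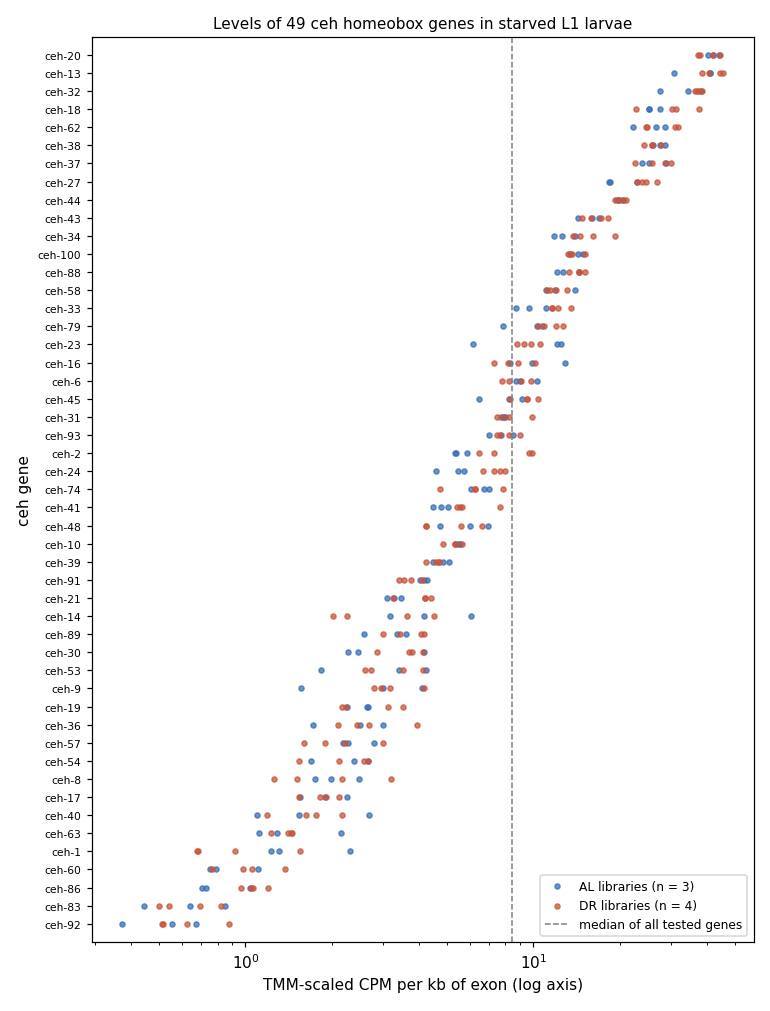
Levels of the 49 ceh genes, ordered by mean. Each point is 1 library (blue AL, red DR), and the horizontal log axis gives TMM-scaled CPM per kb of exon. The dashed line is the median of the tested genes that have an exon length, at 8.40 CPM per kb. The range runs from 0.590 (ceh-92) to 41.2 CPM per kb (ceh-20), and blue and red points lie together for most genes.

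The highest level per length belonged to ceh-20, a PBC gene whose product, like fly Extradenticle, partners Hox proteins on DNA. It had 51.8, 56.3 and 53.7 CPM in AL A to C and 47.7, 56.8, 53.9 and 48.5 CPM in DR A to D. The AL libraries lay inside the DR range, and the log2 fold change of DR over AL was −0.06 ± 0.09 (SE; adjusted p = 0.836, edgeR). The Hox gene ceh-13, the labial-type gene of anterior patterning, came next with 37.9, 28.4 and 37.8 CPM in AL and 35.6, 37.5, 42.1 and 40.98 CPM in DR libraries. Its lowest value was AL B, the other 2 AL libraries lay among the DR values, and the log2 fold change was 0.17 ± 0.12 (SE; adjusted p = 0.621, edgeR). Without AL B it was 0.04, and 0.02 and 0.31 within the groups of libraries that share a file name prefix (AL A with DR A to C, and AL B and AL C with DR D).

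The sine oculis class gene ceh-32, which serves head morphogenesis, stood at 71.2, 51.3 and 64.3 CPM in AL and 70.0, 67.8, 68.6 and 71.7 CPM in DR libraries. The POU gene ceh-18, known for the gonadal sheath cells that restrain oocyte meiosis, had 64.2, 64.01 and 70.0 CPM in AL and 77.2, 79.5, 57.9 and 95.9 CPM in DR libraries. For ceh-18 the DR libraries held both the lowest and the highest value, and DR D, the highest, was the library rich in rRNA. The log2 fold change of ceh-18 was 0.23 ± 0.14 (SE; adjusted p = 0.575, edgeR) and 0.11 without DR D. The NKL gene ceh-62 completed the 5 highest, with 31.6, 26.4 and 33.8 CPM in AL and 29.3, 29.4, 36.6 and 37.8 CPM in DR libraries, and its groups overlapped. Its log2 fold change was 0.12, and 0.025 without AL B, its lowest library.

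The 3 lowest per length were ceh-92, ceh-83 and ceh-86, at 0.590, 0.642 and 0.965 CPM per kb. In CPM, ceh-92 had 1.64, 1.36 and 0.911 in AL and 1.26, 1.26, 2.14 and 1.53 in DR libraries. The gene ceh-83 had 1.55, 1.1798 and 0.815 CPM in AL and 0.919, 0.992, 1.51 and 1.28 CPM in DR libraries. The gene ceh-86 had 1.77, 2.60 and 1.82 CPM in AL and 2.42, 2.62, 2.66 and 3.00 CPM in DR libraries, and AL B lay among its DR values. For the low members the intervals were wide: the log2 fold change of ceh-86 was 0.38, with a 95% interval of −0.13 to 0.88, and that of ceh-92 was 0.24, with an interval of −0.44 to 0.92.

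DR and AL progeny were compared to see whether RNA levels in unfed offspring followed the diet of the parents. No ceh gene passed an adjusted p of 0.05 over all genes in the edgeR quasi-likelihood test, where 0.0135% of the 14867 tested genes (2 genes) passed in all. The lowest adjusted p of a ceh gene was 0.374. None passed by DESeq2, by the edgeR exact test or by limma-voom either. DESeq2 gave no adjusted p for some low genes, among them ceh-1, ceh-40, ceh-60, ceh-83 and ceh-92. In the authors' deposited exact test the lowest adjusted p of the 49 was 0.296, for ceh-2. At an unadjusted p under 0.05 in the quasi-likelihood test there were 6 ceh genes, 12.2% of the 49, beside 10.7% of all tested genes. All 6 had more RNA in DR progeny, where 5.39% of all tested genes were called in that direction, and none had less, where the share of all tested genes was 5.35%. The call of ceh-41 depended on the method: its unadjusted p was 0.069 by DESeq2, 0.067 by the exact test and 0.059 by limma-voom. In the authors' deposited exact test ceh-33 (unadjusted p = 0.065), ceh-34 (0.052) and ceh-41 (0.090) were above 0.05, while ceh-2, ceh-24 and ceh-27 were below it. For 5 ceh genes the values of the groups did not overlap, 10.2% of the 49, beside 11.9% of all tested genes. DR lay above AL in all 5, an order found in 5.97% of all tested genes, and the opposite order, found in 5.88% of all tested genes, occurred in no ceh gene. These 5 genes were ceh-2, ceh-24, ceh-27, ceh-33 and ceh-41. The set depended on the scaling: by library size alone 4 genes had groups that did not overlap, with ceh-27 and ceh-33 overlapping and ceh-79 not, and by upper quartile scaling 6 did, with ceh-34 added. The total shares of ceh genes at these limits thus lay near those of all genes, and no test was made of their direction as a group.

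Over all 49 genes, 28 had a log2 fold change above 0 and 21 below, 57.1% against 51.6% of all tested genes. The median log2 fold change was 0.07, beside 0.01 for all tested genes. Summed over the 49 genes the level was 832 ± 21.7 CPM (SD, n = 3) in AL and 873 ± 31.4 CPM (SD, n = 4) in DR progeny. The AL sums were 839, 808 and 849 CPM and the DR sums 869, 875, 835 and 912 CPM, with DR C inside the AL range. AL B was the lowest library for 15 of the 49 genes and the highest for 9. DR D was the highest for 12 and the lowest for 6. Without AL B the median was 0.01, and without AL A it was 0.13. For 24 of the 49 genes the 95% interval of the difference lay within 1.5-fold in either direction.

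**Figure D2:**
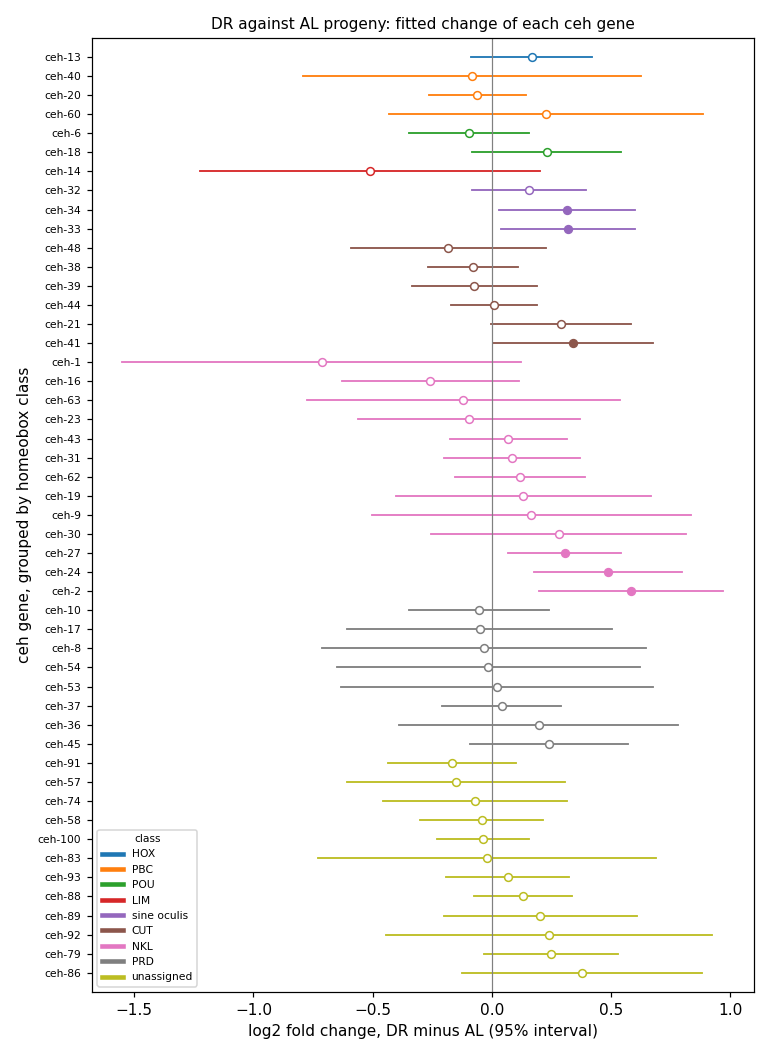
Log2 fold change of DR over AL progeny for the 49 ceh genes, grouped by homeobox class, with 95% intervals from the edgeR quasi-likelihood fit (3 AL and 4 DR libraries). Filled points mark the 6 genes at an unadjusted p under 0.05, all to the right of 0, and none passed the adjusted threshold.

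Of the 13 NKL genes, 9 had a log2 fold change above 0 and 4 below, with a median log2 fold change of 0.12. At an unadjusted p under 0.05 there were 3 of them, beside 10.7% of all tested genes. The gene ceh-2, the relative of fly empty spiracles, is known for the M3 motor neurons of the pharynx. It had 4.58, 4.60 and 5.03 CPM in AL and 5.56, 6.27, 8.44 and 8.23 CPM in DR libraries. The lowest DR value exceeded the highest AL value, and DR C and DR D lay furthest. The difference was 1.499-fold (log2 fold change 0.58 ± 0.18, SE; adjusted p = 0.374, edgeR), and 0.32 on the log2 scale when DR C and DR D were left out. Within the 2 prefixes the log2 fold change was 0.56 and 0.78.

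The NK-2 type gene ceh-24, expressed in the m8 muscle cell of the pharynx, in vulval muscle and in sublateral motor neurons, had 5.79, 4.84 and 6.04 CPM in AL libraries. In DR libraries it had 8.41, 7.04, 8.08 and 7.72 CPM, so that the groups did not overlap. The difference was 1.40-fold (log2 fold change 0.49 ± 0.14, SE; adjusted p = 0.374, edgeR), and on the log2 scale 0.44 and 0.51 within the prefixes. With any 1 library left out its log2 fold change stayed between 0.40 and 0.55.

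Another NK-2 type gene, ceh-27, stood at 21.9, 21.8 and 27.2 CPM in AL and at 29.3, 27.3, 28.4 and 32.04 CPM in DR libraries. AL C reached almost to the lowest DR library, and the groups did not overlap after TMM scaling but overlapped by library size alone. The difference was 1.24-fold (log2 fold change 0.31 ± 0.11, SE; adjusted p = 0.376, edgeR), and 0.37 and 0.39 within the prefixes.

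The largest log2 fold change of an NKL gene, and of all 49, was that of the NK-1 type gene ceh-1, at −0.71 ± 0.38 (SE; adjusted p = 0.520, edgeR). It is a low gene, with 145 counts in all, 1.04, 1.95 and 1.103 CPM in AL and 0.774, 1.31, 0.573 and 0.575 CPM in DR libraries. DR B lay above 2 of the AL libraries, and the log2 fold change was −0.38 without AL B, −1.06 without DR B, and −0.22 and −1.38 within the prefixes. The other 9 NKL genes ran from 1.29 CPM (ceh-63 in DR) to 33.3 CPM (ceh-62 in DR) in mean level. Among these, chosen after their values were seen, the engrailed relative ceh-16, which acts in the seam cells of the epidermis, had 7.64, 11.9 and 9.11 CPM in AL and 8.17, 9.34, 6.72 and 7.53 CPM in DR libraries. Its highest values were in AL B and DR B, the libraries with the most moulting RNA, and this gene's dependence on that state was not tested. The Distal-less relative ceh-43, of the anterior epidermis and dopaminergic neurons, stood at 16.6 ± 1.40 CPM (SD, n = 3) and 17.4 ± 1.604 CPM (SD, n = 4). The AIY and CAN neuron gene ceh-23 stood at 10.7 ± 3.69 and 10.04 ± 0.798 CPM, with AL B alone low at 6.43 CPM. The BarH-type neighbours ceh-30, which keeps male-specific CEM neurons alive, and ceh-31 stood at 3.07 ± 1.08 and 3.75 ± 0.554 CPM, and at 8.84 ± 0.149 and 9.40 ± 1.19 CPM. The genes ceh-9 and ceh-19 reached at most 3.34 and 3.24 CPM in a library.

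**Figure D3:**
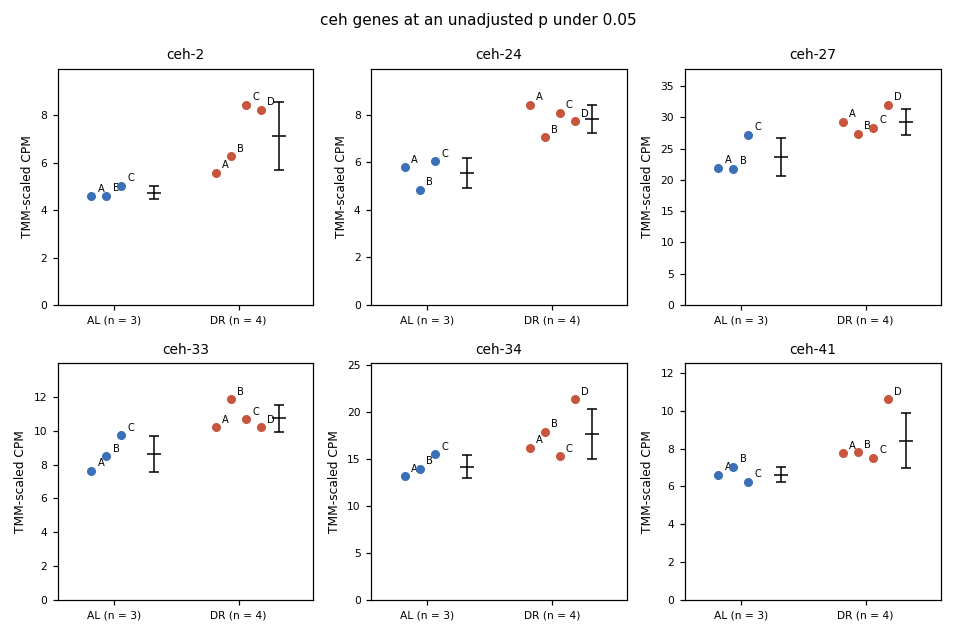
TMM-scaled CPM of the 6 ceh genes at an unadjusted p under 0.05, by group. Points are libraries with their letter, the black bar is the mean ± SD, and each vertical axis starts at 0. On this scale the groups do not overlap for 5 of the genes (by library size alone ceh-27 and ceh-33 also overlap), while for ceh-34 DR C (15.3 CPM) lies below AL C (15.5 CPM).

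All 3 ceh genes of the sine oculis class had a log2 fold change above 0, with a median of 0.31. An unadjusted p under 0.05 was found for 2 of them, beside 10.7% of all tested genes. The genes ceh-33 and ceh-34, relatives of fly sine oculis, lie side by side on chromosome V with no other coding gene between them. The gene ceh-34 is known to specify the identity of pharyngeal neurons. It had 13.1, 13.9 and 15.5 CPM in AL and 16.2, 17.9, 15.3 and 21.3 CPM in DR libraries, with DR D highest and DR C just below AL C. The difference was 1.24-fold (log2 fold change 0.31 ± 0.13, SE; adjusted p = 0.428, edgeR), and 0.32 and 0.54 within the prefixes. It was 0.21 without DR D and 0.16 after adjustment for the share of rRNA. On the annotation used here 8.5% of its exon bases are shared with C10G8.2 on the opposite strand, and the libraries do not tell the strands apart.

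The neighbour ceh-33 had 7.64, 8.49 and 9.73 CPM in AL and 10.2, 11.9, 10.7 and 10.2 CPM in DR libraries, with no overlap after TMM scaling but overlap by library size alone. The difference was 1.25-fold (log2 fold change 0.32 ± 0.13, SE; adjusted p = 0.424, edgeR), and 0.51 and 0.17 within the prefixes. The third ceh gene of the class, ceh-32, had a log2 fold change of 0.16 ± 0.11 (SE; adjusted p = 0.621, edgeR), with AL B lowest, 0.04 without AL B, and −0.05 and 0.32 within the prefixes. Summed, the 3 genes came to 91.995, 73.7 and 89.5 CPM in AL and 96.4, 97.5, 94.6 and 103 CPM in DR libraries.

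Pharyngeal muscle markers went the same way as these genes. The 5 of 5 markers tested (myo-1, myo-2, tnc-2, tni-4 and mlc-7) had a log2 fold change above 0, with a median of 0.29. At an unadjusted p under 0.05, 1 was higher in DR progeny, beside 5.39% of all tested genes. None of the markers was at 0. Their summed level ran from 2421 CPM (AL B) to 3150 CPM (AL C) in AL and from 2741 CPM (DR B) to 3291 CPM (DR D) in DR libraries, so the groups overlapped. The part of pharyngeal RNA content in the values of ceh-2, ceh-24 and ceh-34 was not tested. Pan-neuronal markers had a median log2 fold change of 0.02 over 17 genes, with 11 above 0. At an unadjusted p under 0.05, 2 of them were lower, beside 5.35% of all tested genes. Body wall muscle markers lay below 0 in 6 of 9 genes, with 2 lower at that limit. Hypodermis markers lay below 0 in 6 of 7 genes, with 0 at that limit.

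**Figure D4:**
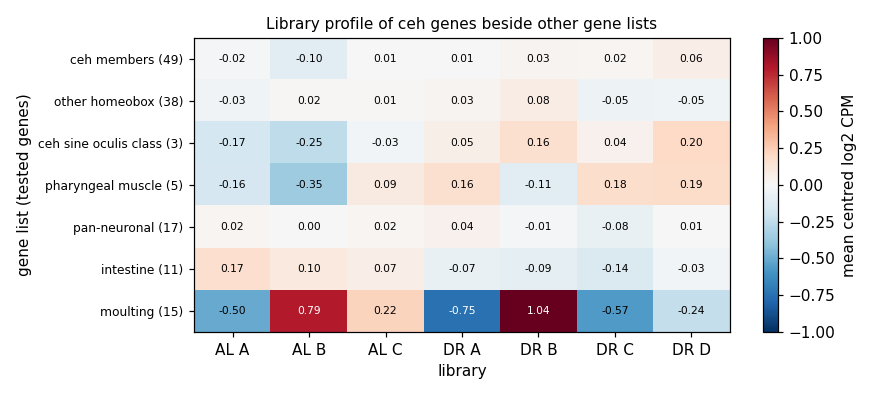
Mean centred log2 CPM per library for the ceh genes, the sine oculis class among them, other homeobox genes and 4 marker lists; red is above and blue below the gene's mean over libraries. The ceh mean moves between −0.10 (AL B) and 0.06 (DR D), while the moulting genes move between −0.75 (DR A) and 1.04 (DR B).

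Among the 49, the CUT class holds the ONECUT genes ceh-21, ceh-38, ceh-39, ceh-41 and ceh-48 and the CUX relative ceh-44. Several CUT proteins (among them CEH-38, CEH-41, CEH-44 and CEH-48) are known to act redundantly in switching on genes shared by all neurons. Of the 6 genes, 3 had a log2 fold change above 0 and 3 below, with a median of −0.03. The abundant ceh-44 had 100.4, 103.9 and 99.2 CPM in AL and 106, 103.8, 97.2 and 100.3 CPM in DR libraries, a log2 fold change of 0.01 with a 95% interval of −0.17 to 0.19. Its locus is also known to encode a Golgi protein of CASP type by alternative splicing, and counts per gene do not separate the products.

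The gene ceh-38 had 79.1, 82.0 and 74.7 CPM in AL and 74.3, 74.1, 69.8 and 79.5 CPM in DR libraries, a log2 fold change of −0.08 with an interval of −0.27 to 0.11. The gene ceh-48 had 8.85, 13.04 and 11.3 CPM in AL and 7.93, 12.5, 7.92 and 10.5 CPM in DR libraries (log2 fold change −0.18 ± 0.19, SE; adjusted p = 0.744, edgeR). Its 2 highest libraries, AL B and DR B, were those with the most moulting RNA. Not all ceh genes went this way: for ceh-37 the same 2 libraries were the lowest, at 35.6 and 33.7 CPM. For ceh-48 the difference within either group was larger than that between the group means of 11.1 and 9.71 CPM. Within the first prefix its log2 fold change turned to 0.09.

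The genes ceh-41, ceh-21 and ceh-39 form a cluster on the X chromosome, all on one strand, with ceh-41 and ceh-21 adjacent and 1 annotated coding gene between ceh-21 and ceh-39. The gene ceh-41 had 6.61, 7.02 and 6.23 CPM in AL and 7.74, 7.80, 7.51 and 10.6 CPM in DR libraries, with no overlap and DR D far above the rest. Its difference was 1.27-fold (log2 fold change 0.34 ± 0.15, SE; adjusted p = 0.458, edgeR), 0.22 without DR D, and 0.22 and 0.69 within the prefixes. After adjustment for the share of rRNA, which was highest in DR D, it was 0.13. The gene ceh-21 had 8.94, 8.49 and 8.01 CPM in AL and 10.8, 10.9, 8.44 and 11.4 CPM in DR libraries, with DR C inside the AL range (log2 fold change 0.29 ± 0.13, SE; adjusted p = 0.470, edgeR).

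The third gene of the cluster, ceh-39, which acts as an X signal in sex determination, had 8.90, 9.32 and 8.20 CPM in AL and 8.61, 8.62, 8.39 and 7.79 CPM in DR libraries. Its log2 fold change was −0.07 with an interval of −0.34 to 0.19. The intervals of ceh-21 (−0.004 to 0.58) and ceh-39 overlap, and the difference between the genes was not tested.

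**Figure D5:**
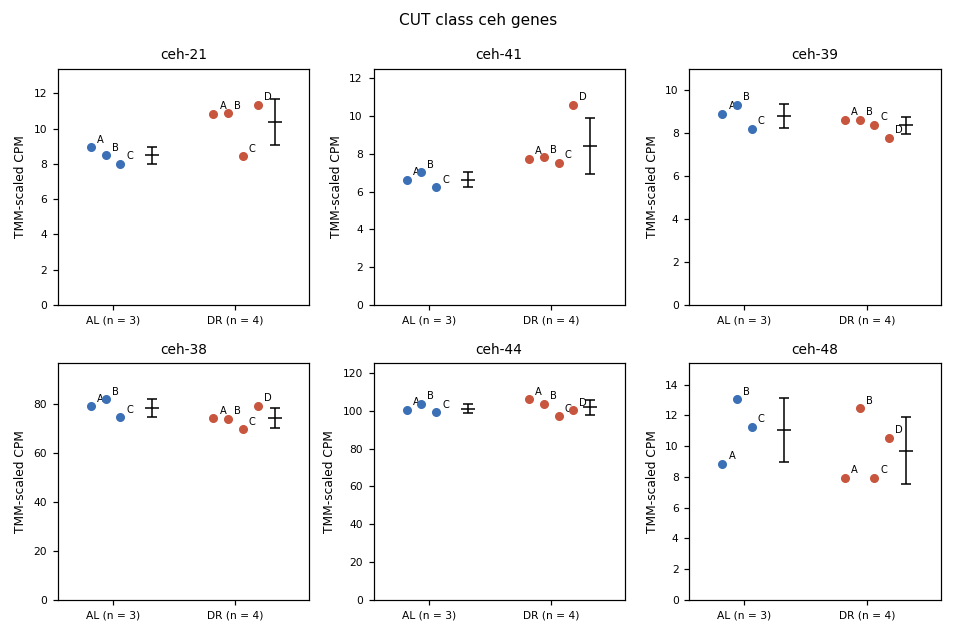
TMM-scaled CPM, by group, of the 6 CUT class genes among the 49 ceh genes. Points are libraries with their letter, the black bar is the mean ± SD, and each vertical axis starts at 0. The abundant ceh-44 and ceh-38 overlap between the groups, and for ceh-41 DR D stands at 10.6 CPM above the other 3 DR libraries at 7.51 to 7.80 CPM.

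The other 2 PBC genes were low. The gene ceh-40 had 1.81, 1.30 and 3.16 CPM in AL and 2.08, 1.40, 2.55 and 1.92 CPM in DR libraries, and the AL libraries spanned the DR values. The gene ceh-60, which acts in the intestine on yolk protein and lipid genes of adults, had 1.47, 1.00 and 1.05 CPM in AL and 1.02, 1.31, 1.82 and 1.40 CPM in DR libraries. Its log2 fold change was 0.23, with an interval of −0.43 to 0.89, and the groups overlapped. Intestinal markers had a median log2 fold change of −0.15, with 9 of 11 below 0. At an unadjusted p under 0.05, 4 of these markers were lower, beside 5.35% of all tested genes. The part of intestinal RNA content in the value of ceh-60 was not tested. The level of ceh-20 was 41.2 CPM per kb of exon, against 1.72 for ceh-40 and 0.974 for ceh-60, so that most PBC RNA came from ceh-20 in both groups. Among POU genes, ceh-6, which serves the excretory canal and rectal cells, stood at 16.7 ± 1.46 CPM (SD, n = 3) and 15.7 ± 1.59 CPM (SD, n = 4).

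The LIM gene ceh-14, a relative of vertebrate Lhx3 that acts in thermosensory AFD and other neurons, had 6.05, 11.6 and 7.96 CPM in AL and 6.92, 8.57, 4.27 and 3.83 CPM in DR libraries. It was described after its values were seen. DR C and DR D were low, DR A and DR B lay inside the AL range, and the log2 fold change of −0.51 had an interval of −1.22 to 0.20 (adjusted p = 0.582, edgeR). Its sign turned between the prefixes, from 0.13 in the first to −1.34 in the second, which holds a single DR library, DR D, and where the adjusted p was 0.0439 (edgeR).

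The 8 PRD genes, most of which act in sensory neurons and interneurons, split evenly, with 4 above and 4 below 0, a median of 0.004 and none at an unadjusted p under 0.05. The largest log2 fold change among them was that of the goosecoid relative ceh-45, at 7.04, 5.55 and 7.82 CPM in AL and 8.90, 7.08, 8.13 and 8.11 CPM in DR libraries (0.24 ± 0.15, SE; adjusted p = 0.587, edgeR), its groups overlapped, and the value was 0.12 without AL B. The Otx-type neighbours on the X chromosome differed in level. The gene ceh-37, known for AWB olfactory neurons and for binding telomeric DNA, had 26.4 CPM per kb of exon, and ceh-36, known for AWC and ASE chemosensory neurons, had 2.63. Means of ceh-37 were 38.7 ± 3.90 CPM (SD, n = 3) and 39.9 ± 4.98 CPM (SD, n = 4). The Chx10 relative ceh-10, which acts in AIY and CAN neurons, stood at 6.19 ± 0.0890 and 5.96 ± 0.374 CPM. The Phox2 relative ceh-17, of ALA and SIA neurons, and ceh-8, ceh-53 and ceh-54 had group means between 1.48 and 2.71 CPM.

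Of the 12 genes without a class here, 6 lay above and 6 below 0, with a median of 0.02 and none at an unadjusted p under 0.05. The most abundant was ceh-100, at 62.8, 60.8 and 56.6 CPM in AL and 57.5, 63.8, 56.7 and 56.0 CPM in DR libraries, with an interval of −0.23 to 0.15 on the log2 scale. The gene ceh-88 stood at 32.5 ± 3.05 CPM (SD, n = 3) and 35.6 ± 1.93 CPM (SD, n = 4), and shares 32.5% of its annotated exon bases with C49C3.6 on the same strand. The genes ceh-57 and ceh-58, adjacent on chromosome II, stood at 6.01 and 5.41 CPM and at 14.4 and 13.96 CPM in AL and DR progeny. The genes ceh-74, ceh-79, ceh-89, ceh-91 and ceh-93 had log2 fold changes between −0.17 and 0.25, the highest being that of ceh-79 (15.5 ± 2.48 and 18.5 ± 1.69 CPM; adjusted p = 0.512, edgeR).

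Homeobox genes with other names served as a second list of 38, which was all tested. Of these 17 had a log2 fold change above 0 and 21 below, with a median of −0.02. At an unadjusted p under 0.05 there were 2 higher and 1 lower in DR progeny, beside 5.39% and 5.35% of all tested genes. None passed over all genes. The groups did not overlap for 3 genes with DR above AL and 1 with DR below. The shares of all tested genes were 5.97% and 5.88%. The paired-like gene unc-42, which specifies command interneurons and motor neurons, had 10.2, 11.4 and 12.7 CPM in AL and 14.8, 14.5, 14.7 and 15.4 CPM in DR libraries, with no overlap (log2 fold change 0.38 ± 0.11, SE; adjusted p = 0.374, edgeR). The Pax-related gene eyg-1 had 1.12, 0.826 and 1.29 CPM in AL and 1.98, 1.71, 1.82 and 2.36 CPM in DR libraries, with no overlap either (0.85 ± 0.27, SE; adjusted p = 0.376, edgeR). The posterior Hox gene php-3 had 52.6, 70.9 and 46.5 CPM in AL and 42.7, 49.7, 38.8 and 30.3 CPM in DR libraries, with DR B above AL C (−0.48 ± 0.18, SE; adjusted p = 0.414, edgeR).

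The 15 further ceh symbols outside the authors' sheet had between 1 and 77 counts over the 7 libraries. They include ceh-49, a CUT gene, with 69 counts and at most 0.952 CPM in a library, here without TMM scaling. Also among them are ceh-51, a gene of early mesoderm, with 45 counts, and ceh-28, of the M4 pharyngeal neuron, with 26 counts. The motor neuron gene ceh-12 had 5 counts. The most abundant, ceh-5, had 77 counts. A count of 0 in a library allows up to 0.131 to 0.180 CPM without TMM scaling, counting error only.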

How the data were processed

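Messenger RNA of 7 libraries was sequenced after poly(A) selection with a kit that does not keep the strand, per the labels' protocols. The submitters' processing notes name Bowtie 1.1.2, HTSeq and edgeR. The genome build is not given in the sources used here, so no coordinates are printed. The deposited count files give raw counts per feature. The deposited workbook gives the authors' CPM, and, from their edgeR exact test, a log2 fold change, log2 mean level and p-value (unadjusted and adjusted) per gene.

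Symbols came from the authors' sheet and, for genes outside it, from Ensembl release 115 or RefSeq. Between 22.2% and 24.0% of reads per library fell in HTSeq's summary lines and were left out. Exon lengths and overlaps came from the Ensembl annotation (assembly WBcel235), which covered all 49 genes, and may differ from the authors' annotation. Of the 49, 14 share exon bases with another gene. No sequences are printed.

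Tests across genes used edgeR 4.0.16 in R 4.3.3 (TMM factors, filterByExpr, two-sided robust quasi-likelihood tests), with Benjamini-Hochberg adjustment over 14867 genes. Intervals are 95% intervals of that fit. The procedure was tested on simulated data. Alternatives were other scalings and filters, DESeq2 1.42.0, limma-voom (limma 3.58.1), the exact test, covariates, and libraries left out. The file names carry 2 prefixes: AL A has the first, as have all DR libraries except DR D, and the other 3 libraries have the second. Fits within a prefix, where 1 group has a single library, assume that this library varies like the others.

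Named were genes at an unadjusted p under 0.05 or with groups that do not overlap, the 5 highest and 3 lowest per length, the largest change of each class with 3 or more genes, and all CUT and PBC genes. Other genes were added after their values were seen. The members, lists and tests were chosen with earlier results of these data known. P-values measure the spread between libraries, whose separate cultures are only stated as biological replicates. Floors are 3 counts of a library's total, and since reads carry no molecular identifiers they cover counting error only.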

Additional observations from a re-analysis of the deposited data

Results flagged for a closer look

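The level of ceh-41 in DR D was 10.6 CPM, and stood apart from the other DR libraries at 7.51 to 7.80 CPM: the gap to the nearest of them exceeded the 95% critical value of Dixon's test for 4 libraries. All 49 ceh genes were screened this way in the DR libraries, and chance flags about 1 in 20. DR D also had the largest share of rRNA, 22.5% of its counts. With the rRNA share as a covariate the log2 fold change of ceh-41 was 0.13, and without DR D it was 0.22, against 0.34 with all libraries.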

How the results depend on the processing

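The fold changes of 24 ceh genes were checked under 23 alternatives. In 529 of 552 values they kept their direction and did not pass the adjusted threshold. None of the 24 passed it with the main settings, so this count mainly follows the sign. It includes the DESeq2 values of ceh-1, ceh-40, ceh-60, ceh-83 and ceh-92, which had no adjusted p. An unadjusted p under 0.05 was less stable. It held in 21 of the 23 alternatives for ceh-2 and for ceh-24, 19 for ceh-27, 18 for ceh-33, 13 for ceh-34 and 7 for ceh-41. No ceh gene passed the adjusted threshold except within the second prefix, where 1 did (ceh-14). The number of all genes past the threshold, 2, was 77 with no filter on low counts, 41 by DESeq2, 24 by the exact test, 0 by limma-voom, 1 with library size only, 0 within the first and 616 within the second prefix, 0 without both DR C and DR D, 0 with the rRNA share and 0 with the moulting level as a covariate, and 0 to 2 with 1 library left out. The count of ceh genes at an unadjusted p under 0.05, 6 beside 10.7% of all tested genes, was 3 beside 9.28% with library size only, 2 beside 3.72% within the first prefix, 3 beside 5.21% with the rRNA share and 7 beside 18.8% within the second prefix. It was 4 to 8 in the other fits, where 13% of all genes at most and 5.86% at least were under that limit. The ceh median of 0.07 was 0.17 within the second prefix and 0.012 to 0.127 with 1 library left out.

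With the replicate block, 4 genes passed in all and 4 ceh genes had an unadjusted p under 0.05, beside 9.13% of all tested genes. The letters were not taken to pair libraries in the main fit. Deviations of same-letter libraries had correlations of 0.20 (A), 0.27 (B) and −0.10 (C). Those of unlike letters ran from −0.46 (AL A with DR B) to 0.25 (AL C with DR B). With ranges that overlap, these values cannot decide whether the letters pair libraries.

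Reversed signs, on the log2 scale, were as follows. Within the first prefix ceh-20 was 0.027, ceh-32 −0.05, ceh-92 −0.085, ceh-60 −0.090, ceh-48 0.094, ceh-40 0.14 and ceh-14 0.13. Within the second ceh-83 was 0.37, ceh-38 0.028 and ceh-44 −0.0105. Without both DR C and DR D ceh-62 was −0.061, ceh-92 −0.0495 and ceh-60 −0.022. The gene ceh-44 was −0.030 with library size only and −0.0028 with no filter. With 1 library left out, ceh-83 was −0.23 to 0.24, ceh-44 −0.0094 to 0.034 and ceh-40 −0.32 to 0.34. The cause was not tested. Of the 16 ceh genes under 5 CPM none had an unadjusted p under 0.05, beside 208 higher and 117 lower of 4965 tested genes at such levels.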

Other observations

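By chromosome in the Ensembl annotation, the 7 ceh genes on chromosome V (ceh-24, ceh-27, ceh-32, ceh-33, ceh-34, ceh-74 and ceh-79) had a median log2 fold change of 0.31, with 6 above 0 and 4 at an unadjusted p under 0.05. All 3208 tested genes of that chromosome had a median of 0.02, and 196 of them were at an unadjusted p under 0.05 with more RNA in DR progeny. The 16 ceh genes on the X chromosome had a median of 0.07, and 1 of them, ceh-41, had an unadjusted p under 0.05. All 2179 tested genes of the X chromosome had a median of 0.00014, with 102 higher and 108 lower at that limit. On chromosomes I, II, III and IV the ceh medians were 0.07, −0.04, −0.05 and 0.08. The grouping on chromosome V was noticed after the values were seen, it includes the neighbours ceh-33 and ceh-34, and it was not tested.

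Between libraries of one group, the ceh genes varied about as much as other genes, with a median standard deviation of 0.19 on the log2 scale, beside 0.20 for all tested genes. Among genes of at least 5 CPM the medians were both 0.155. Over all 7 libraries the ratio of the highest to the lowest value ran from 1.09 (ceh-44) to 3.40 (ceh-1).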
